A study of Homo sapiens with 8 samples.

Results

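Glycolysis, lactate handling and the pentose phosphate pathway were examined through a list of 36 genes for glucose carriers, enzymes, lactate carriers and the kinases that regulate entry into these routes. The members were chosen by gene symbol, as genes of these pathways, with earlier results of these data known. Of the 36, 35 were found by symbol among the 58870 genes of the deposited count table, and 34 passed the filter on low counts and were tested. PGLS was not found by its symbol and is given separately by its Ensembl identifier, and PKLR was too low to test. RNA was sequenced from CFPAC-1, an established cell line of human pancreatic ductal adenocarcinoma, with empty vector in 4 samples and with an overexpressed transgene of ADRA2A in the other 4, the gene of the alpha-2A adrenergic receptor. None of the 8 samples was given a drug, and all were grown for 72 h in IMDM with 10% fetal bovine serum and antibiotics. The promoter of the transgene, and whether each group was a pool or a clone, were not given in the sources used here. Nor did the labels say whether the 4 samples of a group were separate transductions or cultures, so the p-values measure the spread between these samples, which may be technical.

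Glycolysis converts glucose to pyruvate. Hexokinase traps glucose in the cell, phosphofructokinase commits it to the pathway, and the later enzymes from glyceraldehyde phosphate dehydrogenase to pyruvate kinase yield ATP and NADH. Lactate dehydrogenase reduces pyruvate to lactate and regenerates NAD+, monocarboxylate carriers export the lactate, and pyruvate dehydrogenase kinases hold pyruvate back from mitochondrial oxidation. The pentose phosphate pathway branches off at glucose 6-phosphate and supplies NADPH and ribose phosphate. Pancreatic ductal adenocarcinoma cells are known for a high rate of glycolysis. The transcription factors HIF-1 and MYC are known to bind the promoters of many genes in this pathway.

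Library totals lay between 14427035 and 17528915 estimated counts. The ADRA2A gene had 0 counts in each empty-vector library and 112, 142, 154 and 172 counts in the ADRA2A libraries. The count table is per gene, so reads of the transgene and of the cell's own ADRA2A gene were not told apart. All 7 ductal epithelial markers checked, KRT7, KRT8, KRT18, KRT19, EPCAM, CDH1 and CLDN4, were tested genes, with summed levels of 11779.6 to 12874 CPM (counts scaled to a common library size) over the 8 libraries. Within this sum the markers differed: KRT7 (-0.43 on the log2 scale), CDH1 (-0.33) and KRT18 (-0.09) fell, KRT19 (0.20) and EPCAM (0.11) rose, and KRT8 and CLDN4 did not pass the test. Their part in the results was not tested. The summed level of 14 markers of immune, endothelial, fibroblast, acinar and islet cells was 90.8 to 98.3 CPM in the empty-vector libraries and 111 to 123 CPM in the ADRA2A libraries, nearly all of it CD68, a lysosomal gene that epithelial lines also express, and its part in the results was not tested. Without CD68 the other 13 summed to 2.17 to 3.53 CPM in the empty-vector libraries and 2.84 to 4.12 CPM in the ADRA2A libraries, and 4 of the 14 (CD3E, PNLIP, INS and GCG) were at 0 in all 8 libraries.

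Most of the glycolytic genes were lower in the ADRA2A cells, by small amounts. With edgeR's quasi-likelihood test, 23 of the 34 tested members had a p-value under 0.05 after Benjamini-Hochberg adjustment, 19 of them lower and 4 higher. Over all 14785 genes tested, 42.7% passed this threshold, 21.1% lower and 21.6% higher, while of the members 55.9% were lower and 11.8% higher. Their median log2 fold change was -0.16, against 0.00 over all genes tested. The changes were modest: 3 of the 34 members passed the test and differed by 0.5 or more on the log2 scale in either direction, a share of 8.82% where 12.0% of all genes did. Complete separation of the 4 libraries of each group was seen for 17 of the 34 members, and for 39.2% of all genes. With DESeq2 in place of edgeR, 22 of the 34 passed (18 lower, 4 higher), where 39.4% of all genes did. Since the measurement is of bulk RNA, a lower level in each cell and fewer cells with a high level cannot be told apart.

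**Figure D1:**
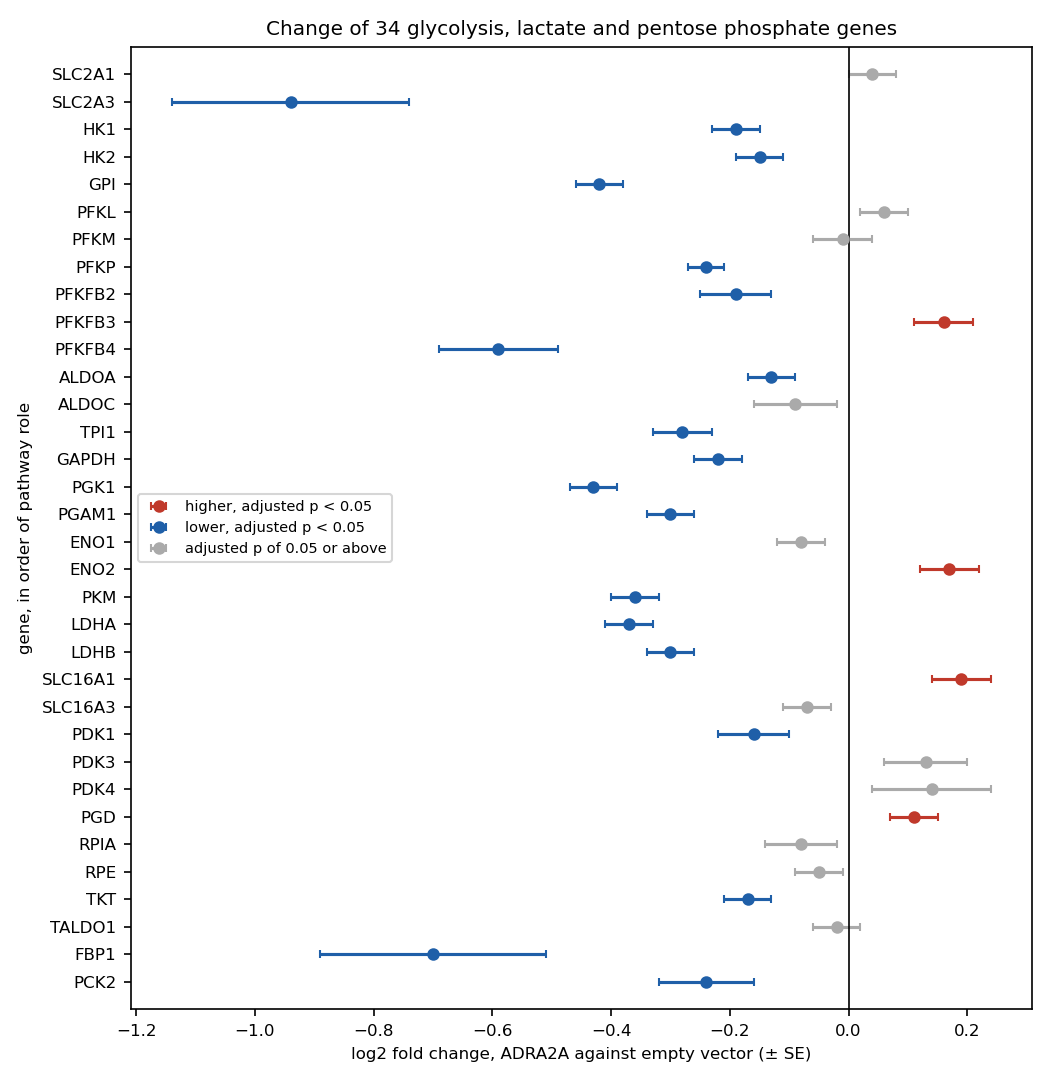
The horizontal axis is the fitted log2 fold change of each tested member (ADRA2A against empty vector, n = 4 each), and bars show the standard error. The 19 genes in blue lie below 0, the 4 in red (PFKFB3, ENO2, SLC16A1 and PGD) lie above 0, and the 11 in grey did not pass the test.

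The 17 tested enzymes that lead from glucose to lactate were also lower as a sum. Their counts took 1.70%, 1.70%, 1.84% and 1.76% of the 4 empty-vector libraries and 1.42%, 1.56%, 1.53% and 1.37% of the ADRA2A libraries. The mean went from 1.75 ± 0.0661% to 1.47 ± 0.0882% (SD, n = 4 each), and the groups did not overlap. The summed level in the ADRA2A cells was thus 0.842 times that in the empty-vector cells. The most abundant genes weighed most in this sum. PKM, GAPDH and ENO1 had means of 4175, 3399 and 3087 CPM in the empty-vector cells. Of the 17 enzymes 12 were lower (70.6%, against 21.1% of all genes tested), 1 was higher (5.88%, against 21.6%) and 4 did not pass the test. Their median log2 fold change was -0.22. Per kilobase of the longest transcript, GAPDH was the most abundant in the empty-vector cells (1976 ± 68.2 CPM per kb, SD, n = 4), followed by PKM (1384 ± 59.7), ENO1 (1212 ± 62.4) and LDHA (673 ± 35.6).

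**Figure D2:**
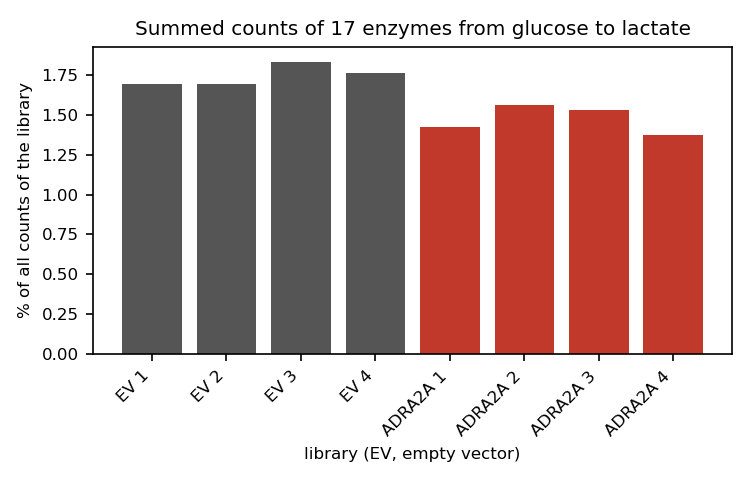
Each bar is the share of a library's counts, in percent, held by the 17 tested enzymes from hexokinase to lactate dehydrogenase. The 4 empty-vector bars (grey, 1.70% to 1.84%) all stand above the 4 ADRA2A bars (red, 1.37% to 1.56%).

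Of the glucose carriers, SLC2A1 (GLUT1), the carrier of most proliferating cells, was far more abundant than SLC2A3 (GLUT3), a carrier with a high affinity for glucose. SLC2A1 (ENSG00000117394.21, chromosome 1, 42925353 to 42958893, minus strand of GRCh38, as are all coordinates here) had 521, 517, 581 and 545 CPM in the empty-vector libraries and 545, 568, 573 and 539.9 CPM in the ADRA2A libraries, with overlap between the groups. The log2 difference was 0.04 ± 0.04 (SE, edgeR's adjusted p = 0.404). SLC2A3 (ENSG00000059804.16, chromosome 12, 7919230 to 8019007, minus strand) had 4.22, 4.34, 4.59 and 3.80 CPM in the empty-vector libraries and 2.70, 2.64, 1.95 and 1.58 CPM in the ADRA2A libraries. Every ADRA2A library lay below every empty-vector library, and the log2 fold change of -0.94 ± 0.20 (SE, edgeR's adjusted p = 0.000782) was the lowest of the 34 members. Its level was low, with between 25 and 79 counts in a library. Its near-identical paralog SLC2A14 and 3 pseudogene copies together had at most 5 counts in any library. With them added, a sum chosen after the data were seen, the level went from 4.24 ± 0.332 to 2.37 ± 0.522 CPM (SD, n = 4 each). Measured per kilobase, SLC2A3 made up 0.597% ± 0.0472 of the summed level of both carriers in the empty-vector cells and 0.304% ± 0.0740 in the ADRA2A cells (SD, n = 4 each).

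The hexokinase members are HK1, the broadly expressed form bound to mitochondria, and HK2, the form typical of muscle and of tumours, and both fell. HKDC1, a related hexokinase that is no member, also fell, from 119.6 ± 2.20 to 107 ± 2.95 CPM (SD, n = 4 each; log2 fold change -0.16 ± 0.04, SE, edgeR's adjusted p = 0.00174). HK1 (ENSG00000156515.23, chromosome 10, 69269984 to 69401884, plus strand) had 146, 137, 151 and 141 CPM in the empty-vector libraries and 123, 135, 125 and 121 CPM in the ADRA2A libraries, and the groups did not overlap. HK2 (ENSG00000159399.9, chromosome 2, 74834127 to 74893359, plus strand) had 175, 158, 181 and 179.6 CPM and 163, 154, 155 and 155 CPM, with overlap because the empty-vector replicate 2 lay below the ADRA2A replicate 1. HK1 fell with a log2 fold change of -0.19 ± 0.04 (SE, edgeR's adjusted p = 0.0014) and HK2 with -0.15 ± 0.04 (SE, edgeR's adjusted p = 0.00745). Of the 20 tested genes nearest to HK1 on chromosome 10, 17 were also below 0 (median -0.16 on the log2 scale). Nearest genes, here and below, are the 10 tested genes on each side by start position, members left out. The part of this stretch in the change of HK1 was not tested. HK1 took 53.9% ± 0.989 of the length-scaled level of HK1 and HK2, HKDC1 left out, in the empty-vector cells, but 41.7% when the summed exon length replaced that of the longest transcript, so which of HK1 and HK2 was the more abundant depended on the length used.

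GPI, which converts glucose 6-phosphate to fructose 6-phosphate, was among the members that differed most clearly. GPI (ENSG00000105220.16, chromosome 19, 34359480 to 34402413, plus strand) had 314, 309, 342 and 324 CPM in the empty-vector libraries and 227, 255, 251 and 227 CPM in the ADRA2A libraries. The highest ADRA2A library stood below the lowest empty-vector library, and the gene fell by 25.5% (log2 fold change -0.42 ± 0.04, SE, edgeR's adjusted p = 1.52e-07). The median log2 fold change of its 20 nearest tested genes on chromosome 19 was -0.10.

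Phosphofructokinase 1 is the committed step and is built from the liver (PFKL), muscle (PFKM) and platelet (PFKP) subunits. PFKP was the main form, with 78.8% ± 0.854 of the length-scaled level in the empty-vector cells. PFKP (ENSG00000067057.17, chromosome 10, 3066333 to 3137718, plus strand) had 476, 463, 496 and 487 CPM in the empty-vector libraries and 404, 417, 423 and 387 CPM in the ADRA2A libraries, without overlap. It fell by 15.1% (log2 fold change -0.24 ± 0.03, SE, edgeR's adjusted p = 1.82e-05). PFKL had 145, 151, 140.3 and 149 CPM in the empty-vector libraries and 144, 160.4, 154 and 151 CPM in the ADRA2A libraries, which overlapped (log2 fold change 0.06 ± 0.04, SE, edgeR's adjusted p = 0.248). PFKM had a log2 fold change of -0.01 ± 0.05 (SE, edgeR's adjusted p = 0.899).

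The bifunctional enzymes of the PFKFB family set the level of fructose 2,6-bisphosphate, the main activator of phosphofructokinase 1, and their genes went different ways. PFKFB4 (ENSG00000114268.12, chromosome 3, 48517684 to 48562015, minus strand) had 20.3, 19.7, 22.8 and 17.9 CPM in the empty-vector libraries and 12.5, 15.8, 14.1 and 11.3 CPM in the ADRA2A libraries. All 4 ADRA2A values were under the lowest empty-vector value, and the gene fell by 33.6% (log2 fold change -0.59 ± 0.10, SE, edgeR's adjusted p = 8.27e-05). PFKFB3, the form with the highest ratio of kinase to phosphatase activity, rose from 224 ± 17.6 to 251 ± 10.1 CPM (SD, n = 4 each; log2 fold change 0.16 ± 0.05, SE, edgeR's adjusted p = 0.00943) and did not overlap. PFKFB2 went from 35.5 ± 1.41 to 31.3 ± 2.49 CPM (log2 fold change -0.19 ± 0.06, SE, edgeR's adjusted p = 0.0218), with overlap. The call of PFKFB2 was lost without ADRA2A replicate 3 (log2 fold change -0.14, adjusted p = 0.0903), without ADRA2A replicate 1 (-0.18, 0.0541) or without empty-vector replicate 1 (-0.17, 0.0666). PFKFB3 was the most abundant of the 3 per kilobase, with 82.1% ± 1.33 of their summed level in the empty-vector cells and 87.1% ± 0.595 in the ADRA2A cells (SD, n = 4 each).

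Aldolase splits fructose 1,6-bisphosphate, and TPI1 interconverts the resulting triose phosphates. ALDOA, the main aldolase with 96.4% ± 0.290 of the length-scaled level, went from 1124 ± 37.8 to 1029 ± 76.6 CPM (SD, n = 4 each), with log2 fold change -0.13 ± 0.04 (SE, edgeR's adjusted p = 0.0194). The groups overlapped for ALDOA, and its call was lost without ADRA2A replicate 1 (adjusted p = 0.0938), ADRA2A replicate 4 (0.0683) or empty-vector replicate 3 (0.0693). The estimated counts of ALDOA, PGAM1 and LDHB were not whole numbers in all 8 libraries, and those of TPI1 were not whole in 6. RSEM gives such counts where reads are divided between genes, so the levels of these genes depend in part on that division. ALDOC, the brain form, had a log2 fold change of -0.09 ± 0.07 (SE, edgeR's adjusted p = 0.277). TPI1 fell by 17.5%, from 509.7 ± 18.2 to 421 ± 37.3 CPM (SD, n = 4 each; edgeR's adjusted p = 0.000102), without overlap.

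The lower part of the pathway, from glyceraldehyde 3-phosphate to pyruvate, fell at each step but enolase. GAPDH, which makes NADH, went from 3399 ± 117 to 2927 ± 192 CPM (SD, n = 4 each), with log2 fold change -0.22 ± 0.04 (SE, edgeR's adjusted p = 0.000125). PGK1, which makes the first ATP of the pathway, had the largest fall of the enzymes from glucose to lactate. PGK1 (ENSG00000102144.15, chromosome X, 77910739 to 78129295, plus strand) had 1050.5, 1073, 1159 and 1117 CPM in the empty-vector libraries and 803, 867, 844 and 744 CPM in the ADRA2A libraries, and the groups did not overlap. It fell by 26.0% (log2 fold change -0.43 ± 0.04, SE, edgeR's adjusted p = 6.44e-08), while the median log2 fold change of its 20 nearest tested genes on the X chromosome was -0.01. PGAM1, the phosphoglycerate mutase, went from 773 ± 45.4 to 626 ± 37.6 CPM (SD, n = 4 each; log2 fold change -0.30 ± 0.04, SE, edgeR's adjusted p = 1.13e-05), and its near-identical copy PGAM4 had at most 5 counts in a library. Of the 20 tested genes nearest to PGAM1, 14 were below 0 (median -0.13 on the log2 scale), and their part in its change was not tested.

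Enolase was the exception. ENO1 (ENSG00000074800.15, chromosome 1, 8861000 to 8879190, minus strand), the form of most tissues, had 2934, 2999, 3296 and 3121 CPM in the empty-vector libraries and 2828, 3158, 3028 and 2665 CPM in the ADRA2A libraries. These values overlapped, with a log2 fold change of -0.08 ± 0.04 (SE, edgeR's adjusted p = 0.147), although the adjusted p-value was 0.0304 without ADRA2A replicate 2 and 0.0376 with no filter on low counts. ENO2 (ENSG00000111674.9, chromosome 12, 6913745 to 6923698, plus strand), the neuronal form, had 44.4, 40.6, 45.4 and 46.5 CPM in the empty-vector libraries and 49.1, 49.1, 52.0 and 49.4 CPM in the ADRA2A libraries. It rose by 12.8% without overlap (log2 fold change 0.17 ± 0.05, SE, edgeR's adjusted p = 0.0112), but it was a minor form with 1.28% ± 0.0697 of the length-scaled enolase level in the empty-vector cells and 1.52% ± 0.108 in the ADRA2A cells (SD, n = 4 each).

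Pyruvate kinase, the last ATP-yielding step, came from PKM alone at a level that could be tested. PKM (ENSG00000067225.18, chromosome 15, 72199029 to 72231819, minus strand) had 4050.1, 4043, 4428 and 4179 CPM in the empty-vector libraries and 3178, 3406, 3384 and 3016 CPM in the ADRA2A libraries. Every ADRA2A library was below every empty-vector library, a fall of 22.3% (log2 fold change -0.36 ± 0.04, SE, edgeR's adjusted p = 1.5e-07). The count table is per gene, so the PKM1 and PKM2 splice forms were not told apart. PKLR, the liver and red cell gene, had at most 1 count in a library.

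Lactate dehydrogenase is a tetramer of LDHA chains, which favour lactate formation, and LDHB chains, which favour its oxidation. LDHA (ENSG00000134333.14, chromosome 11, 18394560 to 18408425, plus strand) had 1460.3, 1440.4, 1618 and 1518 CPM in the empty-vector libraries and 1118, 1247, 1231 and 1079 CPM in the ADRA2A libraries. LDHB (ENSG00000111716.12, chromosome 12, 21635342 to 21757857, minus strand) had 427, 459, 469 and 446 CPM in the empty-vector libraries and 353, 384, 386 and 341 CPM in the ADRA2A libraries. Neither gene overlapped between the groups. LDHA fell by 22.6% (log2 fold change -0.37 ± 0.04, SE, edgeR's adjusted p = 1.17e-06) and LDHB by 18.7% (log2 fold change -0.30 ± 0.04, SE, edgeR's adjusted p = 8.63e-06). LDHA made up 69.7% ± 0.936 of the length-scaled level of both in the empty-vector cells and 68.6% ± 0.259 in the ADRA2A cells (SD, n = 4 each).

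**Figure D3:**
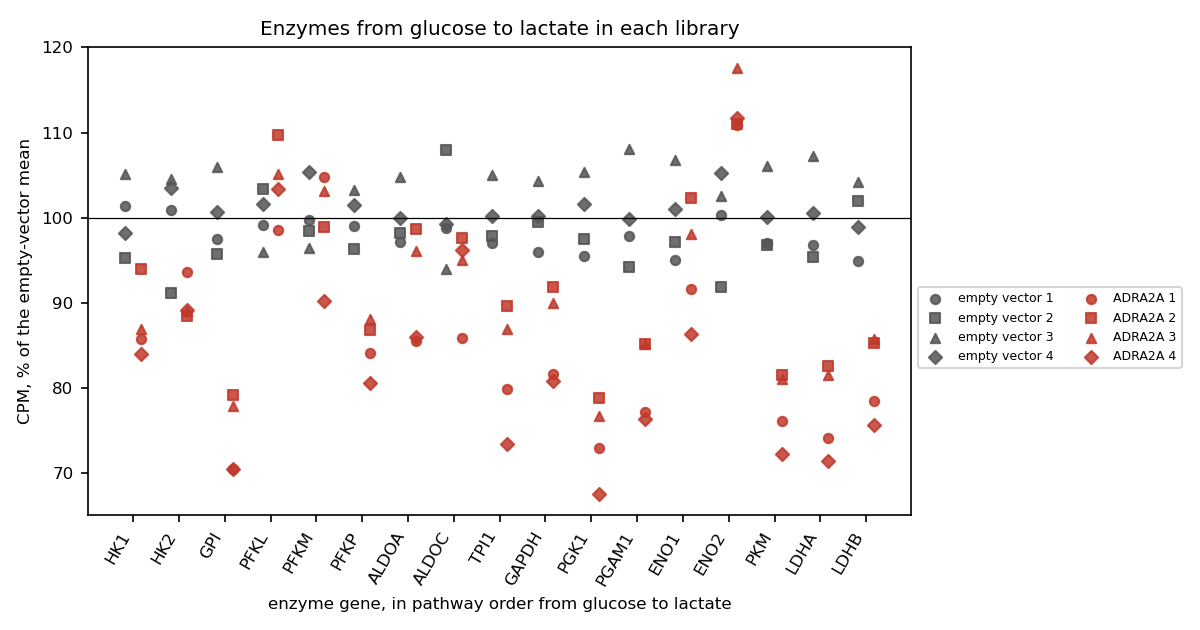
Each point is the level of an enzyme gene in a library, in percent of the gene's empty-vector mean (grey, empty vector; red, ADRA2A; the marker shape gives the replicate number). PGK1, GPI, PKM and LDHA show the widest gaps between the groups, ENO2 stands above 100% in all 4 ADRA2A libraries, and the groups overlap for HK2, PFKL, PFKM, ALDOA, ALDOC and ENO1.

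The promoters of LDHA and PGK1, which fell, are shown with that of PFKP, which also fell, and that of PFKFB3, which rose, because HIF-1 and MYC are known to act on genes of this pathway through short DNA words. The sequences are from RefSeq on GRCh38.p14, plus strand, and run 5′ to 3′ from base -250 to base -11 before the first transcription start listed there, which can differ from the ends of the GENCODE genes given above. Capitals mark each match, on either strand, to ACGTG or GCGTG, the core letters of the hypoxia response element, and to CACGTG, the E-box, which contains ACGTG on both strands.
LDHA chr11:18394313-18394552: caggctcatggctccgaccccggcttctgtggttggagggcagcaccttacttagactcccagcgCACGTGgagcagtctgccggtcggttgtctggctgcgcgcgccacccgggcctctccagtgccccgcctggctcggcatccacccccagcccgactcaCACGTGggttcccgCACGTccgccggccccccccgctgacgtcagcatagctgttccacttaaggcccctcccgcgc
PGK1 chrX:78103998-78104237: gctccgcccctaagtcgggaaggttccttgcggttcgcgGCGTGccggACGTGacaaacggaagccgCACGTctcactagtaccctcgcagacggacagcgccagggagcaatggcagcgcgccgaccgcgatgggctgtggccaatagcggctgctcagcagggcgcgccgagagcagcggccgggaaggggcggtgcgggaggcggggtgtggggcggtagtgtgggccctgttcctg
PFKP chr10:3067720-3067959: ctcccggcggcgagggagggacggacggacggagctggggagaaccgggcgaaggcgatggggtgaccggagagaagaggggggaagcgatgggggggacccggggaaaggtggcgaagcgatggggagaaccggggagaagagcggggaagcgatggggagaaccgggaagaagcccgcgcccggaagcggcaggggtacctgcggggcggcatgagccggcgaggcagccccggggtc
PFKFB3 chr10:6144671-6144910: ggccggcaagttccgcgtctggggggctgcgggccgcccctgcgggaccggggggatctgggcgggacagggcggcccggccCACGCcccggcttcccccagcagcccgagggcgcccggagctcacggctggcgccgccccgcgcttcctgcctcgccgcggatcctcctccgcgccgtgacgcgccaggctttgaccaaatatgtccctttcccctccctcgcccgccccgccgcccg
LDHA held 2 E-boxes and a further ACGTG, PGK1 held 2 ACGTG and 1 GCGTG, PFKFB3 held 1 GCGTG, and PFKP held no match in this window. Of the 36 genes, 33 had a promoter in the RefSeq table, and for each the bases from -250 to -1 before the first start listed were searched. ACGTG or GCGTG occurred in 17 of the 33 (51.5%), where 43.1% of the 27305 genes of the table held one, and CACGTG occurred in 4 (12.1%), where 6.5% of all genes did. Among tested members with a promoter listed, ACGTG or GCGTG occurred in 8 of the 17 that fell, in 3 of the 3 that rose and in 5 of the 11 that did not pass the test. A match is only a match of letters, and no binding was measured.

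Lactate leaves the cell through SLC16A3 (MCT4), the low-affinity exporter of glycolytic cells, and SLC16A1 (MCT1), which carries lactate in either direction. SLC16A3 (ENSG00000141526.16, chromosome 17, 82217934 to 82261129, plus strand) had 238, 240.4, 258 and 239.7 CPM in the empty-vector libraries and 229, 241, 237 and 220.1 CPM in the ADRA2A libraries. These overlapped, and the log2 fold change was -0.07 ± 0.04 (SE, edgeR's adjusted p = 0.129). SLC16A1 (ENSG00000155380.11, chromosome 1, 112911847 to 112957593, minus strand) had 54.1, 55.6, 59.8 and 54.5 CPM in the empty-vector libraries and 60.8, 65.1, 64.0 and 65.5 CPM in the ADRA2A libraries. All 4 ADRA2A values lay above the empty-vector values (log2 fold change 0.19 ± 0.05, SE, edgeR's adjusted p = 0.00347). SLC16A3 remained the more abundant per kilobase, at 79.8% ± 0.167 of their summed level in the empty-vector cells and 76.7% ± 0.931 in the ADRA2A cells (SD, n = 4 each).

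The pyruvate dehydrogenase kinases phosphorylate and inactivate the pyruvate dehydrogenase complex. Of the 3 listed members, 1 passed the test (33.3%, against 42.7% of all genes tested). PDK2, of the same family but no member, also fell, from 18.1 ± 0.835 to 15.7 ± 1.10 CPM (SD, n = 4 each; log2 fold change -0.21 ± 0.08, SE, edgeR's adjusted p = 0.0408). PDK1, a HIF-1 target, went from 48.0 ± 4.46 to 43.0 ± 1.36 CPM (SD, n = 4 each; log2 fold change -0.16 ± 0.06, SE, edgeR's adjusted p = 0.0411), with overlap. This call did not hold under DESeq2 (adjusted p = 0.0553) or limma voom (0.0510), or in 5 of the 8 fits that each left out a library: without ADRA2A replicate 1 (0.111), 3 (0.0605) or 4 (0.0751), and without empty-vector replicate 3 (0.150) or 4 (0.131). PDK3 had a log2 fold change of 0.13 ± 0.07 (SE, edgeR's adjusted p = 0.168) and PDK4, which is induced by fasting, 0.14 ± 0.10 (SE, edgeR's adjusted p = 0.272).

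In the pentose phosphate pathway, 1 of the 5 tested members rose, 1 fell and 3 did not pass the test, a share called (2 of 5) close to the 42.7% of all genes. PGD, which makes NADPH and ribulose 5-phosphate in the oxidative branch, rose from 269.8 ± 7.72 to 291 ± 10.6 CPM (SD, n = 4 each; log2 fold change 0.11 ± 0.04, SE, edgeR's adjusted p = 0.0168). The groups overlapped for PGD, the median of its 20 nearest tested genes on chromosome 1 was 0.10, and its call was lost without ADRA2A replicate 3 (adjusted p = 0.0660) or empty-vector replicate 1 (0.0516). TKT, the transketolase of the non-oxidative branch, fell from 412 ± 11.2 to 366 ± 18.4 CPM (SD, n = 4 each; log2 fold change -0.17 ± 0.04, SE, edgeR's adjusted p = 0.000907), without overlap. The isomerase gene RPIA had a log2 fold change of -0.08, the epimerase gene RPE -0.05 and the transaldolase gene TALDO1 -0.02; edgeR's adjusted p-values were 0.297, 0.349 and 0.699. PGLS, the lactonase of the oxidative branch, was found as ENSG00000130313.7 under a clone-based label, with 57.0 ± 5.08 to 54.1 ± 1.05 CPM (SD, n = 4 each; log2 fold change -0.08 ± 0.06, SE, edgeR's adjusted p = 0.307).

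Both members listed for gluconeogenesis, the reverse route, fell: FBP1 and PCK2. Outside the members, PCK1 had at most 2 counts in a library and FBP2 had 0, so neither was tested, and G6PC3 and PC did not fall. G6PC3, a glucose 6-phosphatase, rose from 79.1 ± 4.61 to 94.6 ± 2.21 CPM (SD, n = 4 each; log2 fold change 0.26 ± 0.05, SE, edgeR's adjusted p = 0.000125), and the pyruvate carboxylase gene PC had a log2 fold change of 0.12 ± 0.08 (SE, edgeR's adjusted p = 0.223). FBP1 (ENSG00000165140.10, chromosome 9, 94603133 to 94640249, minus strand), the fructose bisphosphatase that opposes phosphofructokinase, had 4.86, 4.89, 3.49 and 4.32 CPM in the empty-vector libraries and 2.91, 2.64, 3.03 and 2.15 CPM in the ADRA2A libraries. The groups did not overlap at this low level, and the gene fell with a log2 fold change of -0.70 ± 0.19 (SE, edgeR's adjusted p = 0.00454). Of the 20 tested genes nearest to FBP1, 15 were below 0 (median -0.10 on the log2 scale), and their part in its change was not tested. PCK2, the mitochondrial phosphoenolpyruvate carboxykinase, went from 47.9 ± 6.78 to 40.5 ± 1.86 CPM (SD, n = 4 each; log2 fold change -0.24 ± 0.08, SE, edgeR's adjusted p = 0.0149), with overlap. Its empty-vector value rested in part on replicate 2, without which the log2 fold change was -0.14 (adjusted p = 0.0668). The call was also lost without ADRA2A replicate 1 (-0.22), where the adjusted p-value lay just above the threshold. Of the 20 tested genes nearest to PCK2, 16 were above 0.

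Whether the forms of a step changed unequally was tested through the log2 ratio of their counts in each library, which does not depend on the scaling between libraries. With 4 against 4 libraries the smallest p-value of the exact two-sided permutation test is 0.0286, and 6 ratios were tested. The ratio of PFKP to PFKL went from 1.72 ± 0.08 to 1.42 ± 0.06, that of ENO2 to ENO1 from -6.12 ± 0.08 to -5.87 ± 0.10, that of SLC16A3 to SLC16A1 from 2.12 ± 0.01 to 1.86 ± 0.07 and that of SLC2A3 to SLC2A1 from -6.99 ± 0.12 to -7.99 ± 0.36 (log2, SD, n = 4 each). In each of these 4 ratios the groups did not overlap (exact permutation p = 0.0286, 0.0429 after Benjamini-Hochberg adjustment over the 6). Leaving out empty-vector replicate 1, 3 or 4 put the adjusted exact permutation p of all 4 above 0.05 (0.0571 to 0.0857). Leaving out replicate 2 did so for ENO2 to ENO1 (0.0686). Except for ENO2 to ENO1, each ratio kept the smallest possible p-value, and its rise above 0.05 came from the adjustment. In these fits the differences were -0.33 to -0.26 for PFKP to PFKL and 0.23 to 0.28 for ENO2 to ENO1. They were -0.27 to -0.26 for SLC16A3 to SLC16A1 and -1.05 to -0.96 for SLC2A3 to SLC2A1. For HK2 to HK1 the difference was 0.04 (exact permutation p = 0.457) and for LDHA to LDHB -0.07 (exact permutation p = 0.143), with overlap in both, so no unequal change of these pairs was detected. The overlap for LDHA to LDHB came from empty-vector replicate 2, whose ratio of 1.65 lay under the 1.77 to 1.79 of the other 3. Leaving it out therefore had to separate the groups, and the difference was then -0.10 (adjusted exact permutation p = 0.0429). With any other library left out, the adjusted exact permutation p was 0.143 to 0.309.

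**Figure D4:**
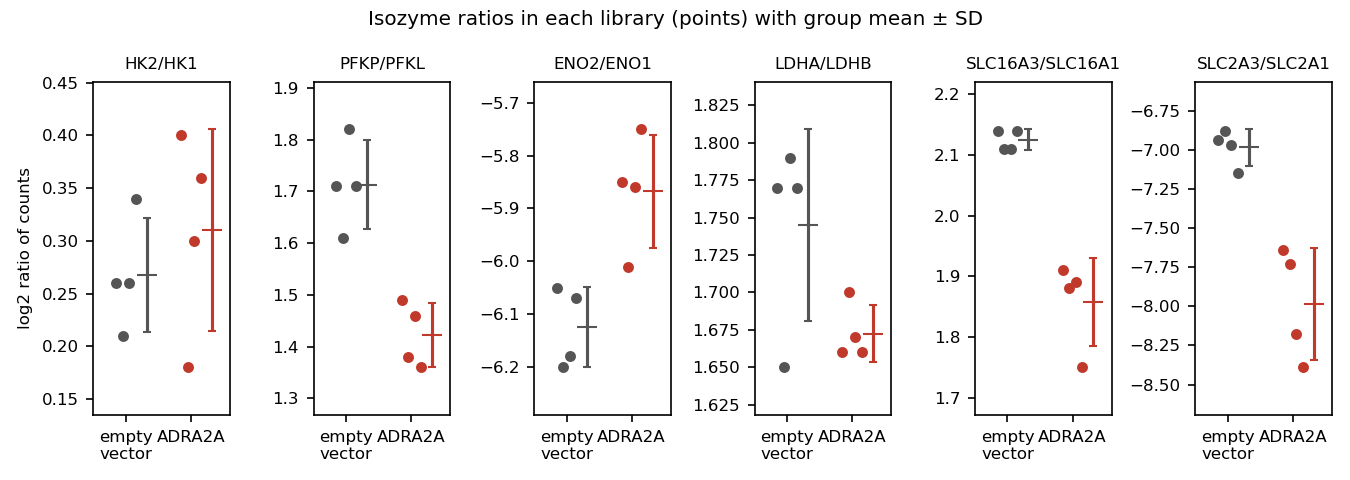
Each panel shows the log2 ratio of the counts of a pair of forms in each library, with the group mean and SD beside the points, on an axis of its own. The groups separate for PFKP/PFKL, ENO2/ENO1, SLC16A3/SLC16A1 and SLC2A3/SLC2A1 and overlap for HK2/HK1 and LDHA/LDHB.

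Within each group, the members were not spread evenly over the libraries. Empty-vector replicate 3 was the highest empty-vector library for 24 of the 34 tested members (70.6%), where it was the highest for 26.7% of all genes tested. Among the ADRA2A libraries, replicate 4 was the lowest for 18 members (52.9%, against 28.3% of all genes) and replicate 2 was the highest for 17 of the 34 (all genes: 24.2%). Members of one pathway are not independent, and no test was made of these counts. Without empty-vector replicate 3 the fit called 17 members lower and 4 higher, and without ADRA2A replicate 4 it called 17 lower and 4 higher. The lowest count came without ADRA2A replicate 1, at 15 lower and 4 higher.

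Of 51 other genes of glucose metabolism, 36 were tested, 11 fell and 5 rose (44.4% called, against 42.7% of all genes), and the median log2 fold change was -0.05. H6PD, which performs the oxidative pentose phosphate steps inside the endoplasmic reticulum, rose from 29.8 ± 1.77 to 58.6 ± 5.65 CPM (SD, n = 4 each; log2 fold change 0.98 ± 0.07, SE, edgeR's adjusted p = 5.07e-10). SLC2A13, the proton myo-inositol cotransporter of the same carrier family, rose with a log2 fold change of 0.67 ± 0.07, and SLC16A7 (MCT2), a high-affinity monocarboxylate carrier, with 0.51 ± 0.06 (SE, edgeR's adjusted p = 2.15e-07 and 9e-07). PDP1, the phosphatase that reactivates pyruvate dehydrogenase, fell from 80.4 ± 1.14 to 50.5 ± 4.06 CPM (SD, n = 4 each; log2 fold change -0.67 ± 0.05, SE, edgeR's adjusted p = 3.21e-09). PGM2 fell with -0.39 ± 0.05, and DLAT, the acetyltransferase subunit of pyruvate dehydrogenase, with -0.25 ± 0.05 (SE, edgeR's adjusted p = 9.4e-06 and 0.00016).

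Of 24 regulators and targets of the hypoxia and glucose responses, all were tested, 8 fell and 4 rose, and the median log2 fold change was -0.03. The 12 of 24 called compare with 42.7% of all genes. The mitophagy gene BNIP3 fell from 159.7 ± 11.0 to 104 ± 7.38 CPM, EPAS1 (HIF-2 alpha) from 118 ± 6.21 to 89.0 ± 2.38 CPM and VEGFA from 268 ± 12.8 to 206 ± 6.14 CPM (SD, n = 4 each; edgeR's adjusted p = 1.27e-08, 2.62e-07 and 1.49e-07). The regulator genes HIF1A and MYC, named after their values were seen, fell with log2 fold changes of -0.07 ± 0.03 and -0.33 ± 0.04 (SE, edgeR's adjusted p = 0.0468 and 3.25e-07). Of the 12 genes of this list that did not pass, the regulator gene ARNT had 0.10 ± 0.05 (SE, edgeR's adjusted p = 0.133). The targets CA9, ADM, EGLN3, NDRG1, P4HA1, DDIT4 and KDM3A, also among these 12, lay between -0.27 and 0.10. With any library left out, 6 or 7 genes of this list were called lower. CA12, a membrane carbonic anhydrase, rose from 5.05 ± 0.596 to 18.8 ± 1.07 CPM (SD, n = 4 each), and TXNIP, a glucose-induced inhibitor of glucose uptake, from 415 ± 40.4 to 504 ± 11.3 CPM (SD, n = 4 each; edgeR's adjusted p = 1.25e-11 and 0.000113). MAX, the partner of MYC, rose with 0.20 ± 0.05 (SE, edgeR's adjusted p = 0.00226). Mitotic genes moved beside the glycolytic ones: all 8 checked (MKI67, TOP2A, CCNB1, CDK1, BUB1, AURKA, PLK1 and CCNA2) fell, where 21.1% of all genes did, with log2 fold changes between -0.43 and -0.11. The smallest of these changes was that of PLK1, whose groups overlapped (edgeR's adjusted p = 0.0434). Their part in the lower glycolytic levels was not tested.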

How the data were processed

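RNA was sequenced from 8 CFPAC-1 samples, 4 per group. The deposited table holds the authors' estimated counts per gene. The submitters' processing notes name cutadapt, STAR, RSEM, DESeq2 and hg38, with neither roles nor versions, and strandedness was not given in the sources used here. Between 4.61 and 4.90% of a library's values were not whole, and all were rounded to whole numbers.

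edgeR 4.0.16 (R 4.3.3) with filterByExpr, TMM factors and a quasi-likelihood fit on group alone was run on the whole table, with Benjamini-Hochberg adjustment over the 14785 genes tested and a threshold of 0.05; it was first tested on simulated data. The SE is the log2 fold change divided by the root of F. CPM used TMM-scaled totals. The chi-square per degree of freedom between replicates was 2.15 to 4.76, so no library was a copy of another. Coordinates and lengths are from GENCODE 44, which matched 99.4% of gene identifiers. Ratios used counts plus 0.5.

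Values of every library are given for members with an adjusted p-value under 0.05 and a log2 difference of 0.5 or more in size, for the genes of the 6 ratios and, beyond that rule, for GPI, PGK1 and PKM. Of each further list, the 3 highest and 3 lowest called genes with a mean of at least 10 CPM are named. HIF1A, MYC, HKDC1, PDK2, G6PC3, PC, the genes of the hypoxia and glucose list that did not pass and the markers given singly were named after their values were seen. The members and lists were chosen with earlier results of these data known. Alternatives were DESeq2 1.42.0, RLE and upper quartile factors, limma 3.58.1 voom, other filters, a replicate block and leaving out each library.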

Additional observations from a re-analysis of the deposited data

Results flagged for a closer look

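Over the members and ratios, 80 groups of 4 libraries were checked for a library standing apart by Dixon's criterion, and 7 were marked, where chance alone marks about 1 in 20. HK2 was at 163, 154, 155 and 155 CPM in the ADRA2A libraries, where replicate 1, at 163 CPM, stood above the others. ENO2 was highest in ADRA2A replicate 3, at 52.0 CPM. SLC16A3 was highest in empty-vector replicate 3, at 258 CPM. RPE was highest in empty-vector replicate 2, at 96.2 CPM, and in ADRA2A replicate 3, at 90.9 CPM. The log2 ratio of LDHA to LDHB was lowest in empty-vector replicate 2, at 1.65, and that of SLC16A3 to SLC16A1 was lowest in ADRA2A replicate 4, at 1.75.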

How the results depend on the processing

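Of the 34 tested members, 26 kept their direction and their side of the threshold in all 15 alternatives, and 8 did not. Members called lower numbered 18 with DESeq2 and limma voom, 20 with no filter on low counts and 19 with RLE factors, upper quartile factors, a mean of at least 50 counts or the replicate block, against 19 in the reported fit. Leaving out each library gave 15 to 20 lower and 3 to 4 higher. The direction turned for PFKM (-0.03 to 0.03 over the libraries left out) without ADRA2A replicate 4 (0.03) or empty-vector replicate 4 (0.02), and for TALDO1 without ADRA2A replicate 1 (0.00); neither was called in any fit, and the cause was not tested. The replicate numbers did not pair the libraries, with correlations of same-numbered deviations of -0.04 to 0.07. The replicate block changed no member's call. The paired sign-flip test over the 4 replicate numbers has too few arrangements to give a p-value under 0.05, so it cannot decide here. In it the ratios PFKP/PFKL (-0.29), ENO2/ENO1 (0.26), SLC16A3/SLC16A1 (-0.26) and SLC2A3/SLC2A1 (-1.0) had an adjusted exact sign-flip p of 0.188. Their differences were the same as in the main test. Leaving out each library gave ranges of 0.01 to 0.08 for HK2/HK1, -0.33 to -0.26 for PFKP/PFKL, 0.22 to 0.30 for ENO2/ENO1, -0.10 to -0.06 for LDHA/LDHB, -0.28 to -0.23 for SLC16A3/SLC16A1 and -1.11 to -0.86 for SLC2A3/SLC2A1. Of 210 step shares recomputed, 33 moved by at least 1 SD, all with the summed exon length. Most of the 210 left out a library instead, and none of those moved. Of the shares recomputed with the summed exon length, most moved, so the shares of forms printed above depend on the length used. The low counts of SLC2A3 and FBP1 limit their precision.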
